A study of Homo sapiens with 2 samples.

Results

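The proteasome genes described here are the rows of the count table whose symbol is PSM followed by a letter from A to G and a number: 48 of 60649 rows, all of them protein-coding in RefSeq. They were sorted by symbol into 19 core genes (PSMA and PSMB), 6 ATPase genes (PSMC), 14 lid and base genes (PSMD), 5 activator and inhibitor genes (PSME and PSMF) and 4 assembly genes (PSMG). The study sequenced RNA from 2 RNA immunoprecipitations (RIP), in which an antibody recovers a protein with the RNA attached to it or near it. Both libraries came from MDA-231, a human breast cancer line of genotype wt per the labels, and the cells of both had been held for 16 h without serum while exposed to P4G11, an antibody to beta-1 integrin (1 sample's cell line label reads MDA-232). 1 library was pulled down with an antibody against MT1-MMP, a membrane-anchored matrix metalloproteinase, and the other with rabbit IgG as a mock. The design text names MT1-MMP and the sample title MMP1, and the design text was followed. The protocol also lists E7-s but states no role for it.

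The proteasome is the protease complex that degrades proteins tagged with ubiquitin. Its core is a barrel of alpha rings, which gate the entrance, around beta rings, which hold the peptide-cutting sites. A regulatory particle at its ends binds ubiquitin chains (lid and base), unfolds the substrate with a ring of ATPases and feeds it into the core. Other caps activate or inhibit the core, and dedicated chaperones assemble it. The subunits are needed in fixed proportions, and cells are known to raise their genes together through the transcription factor NRF1, encoded by NFE2L1.

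The MT1-MMP library held 31636000 counts and the IgG library 13003668. A block of 28 ribosomal DNA rows on chromosome 21 took 10.2% of the former and 92.6% of the latter, so the libraries were put on one scale with trimmed mean of M-values (TMM) factors. On that scale 45.9 MT1-MMP counts to 1 IgG count make a ratio of 1, and log2 ratios below 0 lie on the IgG side. Plain CPM, which divides by each library's total, places each gene 4.24 higher, which turns many ratios below 0 positive. A gene was called higher in a library where the whole 95% exact interval of its ratio lay beyond 2-fold. The intervals cover counting error only, and with 1 library a group there is no replicate check and no p-value. Of the MDA-231 markers set down (VIM, CD44, CAV1, AXL, EGFR and KRT18), all 6 were counted in both libraries, with 50 to 47868 counts in the MT1-MMP library and 62 to 721 in the other. The luminal markers ESR1, GATA3, PGR, FOXA1 and CDH1 had 17 to 369 and 0 to 3 counts. Of the markers of other cell types, HBB, ALB and CD3E had 1 or 2 counts after MT1-MMP pulldown and 0 in the mock, PTPRC had 50 and 0, COL1A1 24 and 12, and PECAM1 3414 and 24.

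On the TMM scale, the proteasome genes as a group lay on the IgG side, while by plain CPM their median log2 ratio was 2.11. A sum of at least 20 counts, the minimum for a ratio, was reached by 46 of the 48. Of these, 25 (54.3%) were called higher in the IgG library, 1 was called higher with the MT1-MMP antibody, and 20 were not called. Among all 14328 tested protein-coding genes the shares called were 16.2% and 7.24%. The share called higher in the IgG library depends on gene span, in 10 classes described below. It was 55.5% and 38.6% in the 2 shortest classes, which hold 10 and 11 of the 46, and 1.40% in the longest. The median log2 ratio of the proteasome genes was -2.13, with a range from -7.02 to 2.77, against 0.05 over the protein-coding genes. The minimum does not treat both sides alike: 10 of the 46 reached 20 counts through the MT1-MMP library alone and 2 through the IgG library alone. The 2 were PSMB6 and PSME1, which had the lowest ratios. The 10 were PSMB1, PSMB7, PSMB9, PSMB10, PSMD6, PSMD10, PSME2, PSMG1, PSMG3 and PSMG4, the last with the highest ratio. Both ends of the range are thus genes that passed only through the library where they are high. Summed over all 48, the proteasome rows held 34854 MT1-MMP and 1582 IgG counts. Outside the ribosomal block this was 0.123% of the MT1-MMP counts (95% exact interval 0.121 to 0.124) and 0.164% of the IgG counts (0.156 to 0.173). These are shares of the counts from each pulldown and do not measure RNA levels in the cells.

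**Figure D1:**
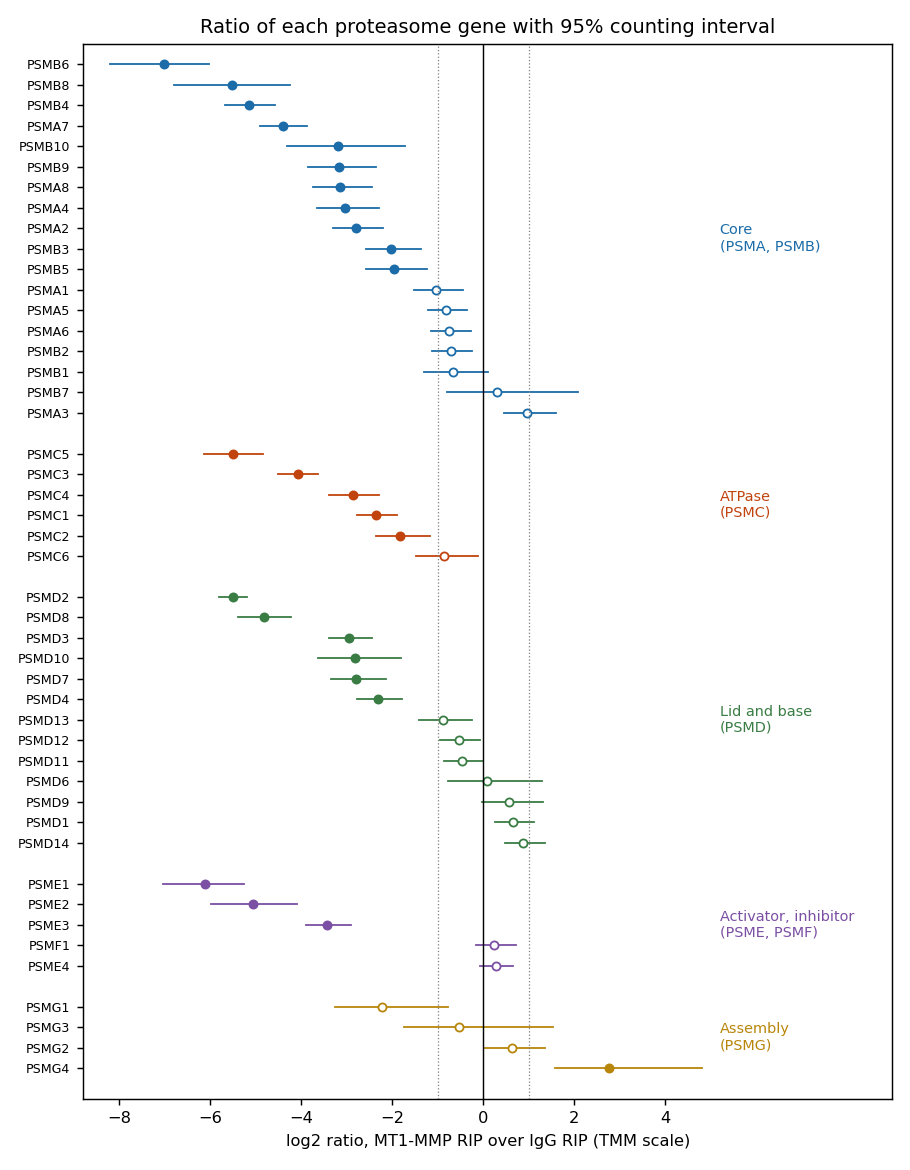
Log2 ratio of MT1-MMP RIP over IgG RIP on the TMM scale for the 46 tested proteasome genes, by group. Bars are 95% exact counting intervals, filled points are genes called higher in a library, and dotted lines mark 2-fold. Points run from PSMB6 at -7.02 to PSMG4 at 2.77, and PSMG4 has the single filled point right of 0.

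The raw counts of the mock library were much alike from gene to gene, and those of the MT1-MMP library were not. Over the 46 tested genes the IgG counts had a median of 30.5, with quartiles of 20 and 45.8. The MT1-MMP counts had a median of 294 and quartiles of 112 and 1286. Of the 46 genes, 36 lay within 2-fold of their median in the IgG library, against 16 in the other. Over the tested protein-coding genes these shares were 37.8% and 27.9%, about medians of 12 and 387.5 counts. The standard deviation of the log2 counts over the proteasome genes was 1.07 for IgG and 2.20 for MT1-MMP. Over tested protein-coding genes it was 2.20 and 2.43. Per kb of gene span, defined below, the order was the reverse: 1.70 for IgG and 1.21 for MT1-MMP over the proteasome genes. Over tested protein-coding genes the values per kb were 2.71 and 2.04.

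**Figure D2:**
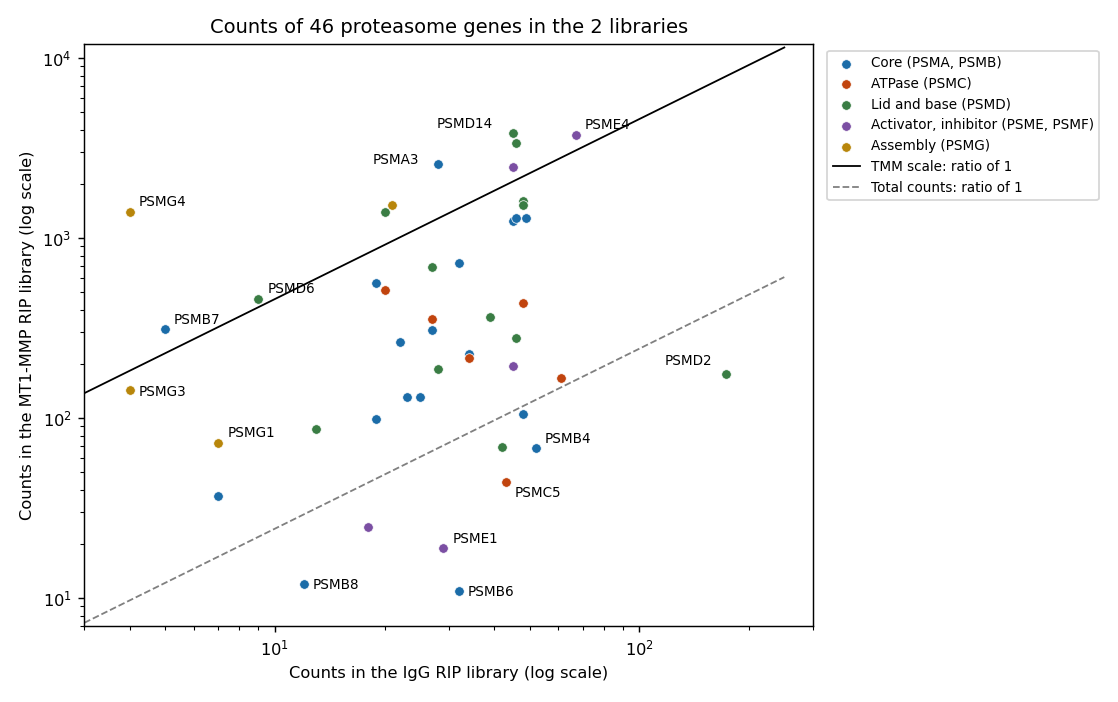
Counts of the 46 tested proteasome genes in the IgG RIP library (x, log scale) and the MT1-MMP RIP library (y, log scale). The solid line is a TMM ratio of 1 and the dashed line equal plain CPM. Most points form a tall narrow band near the median of 30.5 IgG counts, while their MT1-MMP counts run from 11 to 3841.

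Those MT1-MMP counts were larger the longer the gene. Span here is the distance from start to end in RefSeq, introns included, and across the 46 genes it ran from 2.33 kb (PSMB6) to 138.8 kb (PSMA1). Spearman's rho between span and counts was 0.87 for MT1-MMP and 0.23 for IgG. The IgG counts were also lower, and no cause of the difference in rho was tested. Between span and log2 ratio rho was 0.75. These values describe genes that share both libraries and their depth, and genes are not replicates. Over all tested protein-coding genes the values were 0.57, 0.16 and 0.62. Per kb of span, the median over proteasome genes was 22.3 MT1-MMP and 1.78 IgG counts, against 13.6 and 0.326 over tested protein-coding genes.

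Most proteasome genes also lay lower than other genes of like span. Tested protein-coding genes were divided into 10 equal classes by span, and 37 of the 46 proteasome genes had a ratio below the median of their own class, by a median log2 difference of -0.78. The difference was larger in the shortest class than in the next. In the shortest class (up to 6.68 kb, class median -2.73), 9 of 10 lay below it, by a median of -2.37. In the next class (to 12.2 kb, class median -1.67) all 11 did, by -1.20. Of the 7 genes in the class from 12.2 to 18.3 kb, 3 lay below. All 6 ATPase genes and all 5 activator and inhibitor genes were below their class medians, as were 16 of 18 core genes, 9 of 13 lid and base genes and 1 of 4 assembly genes. The span of PSMA1 includes a distant upstream end, and its listed RefSeq start lies 15.5 kb from the other end of the gene. From listed starts 37 of 46 again lay below, by a median of -0.59.

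**Figure D3:**
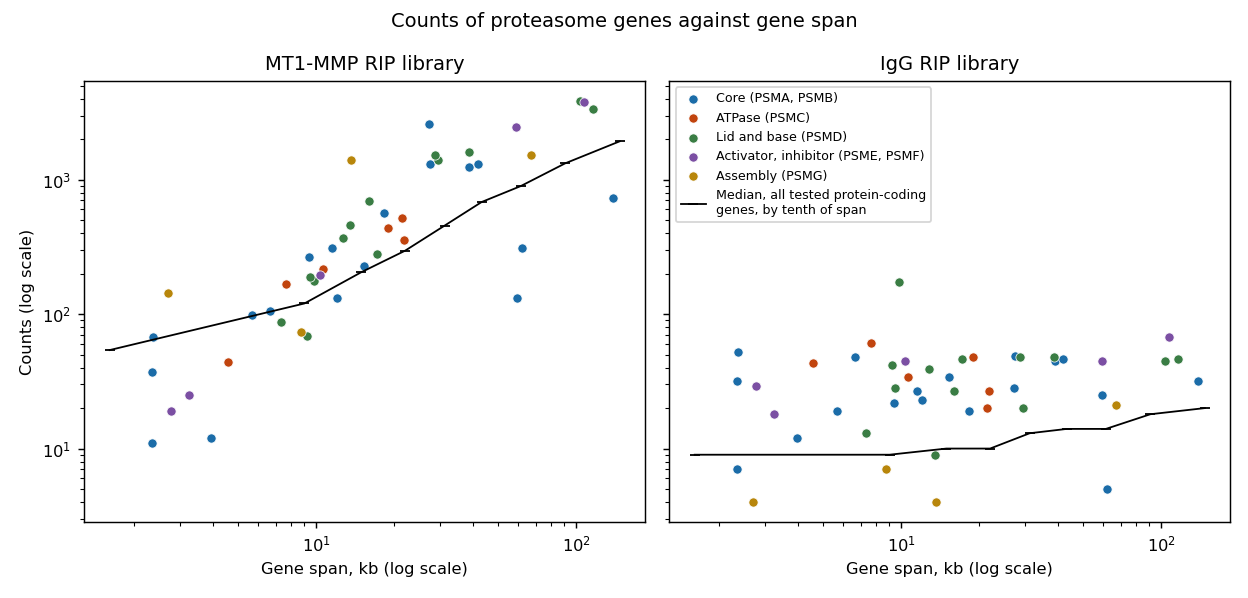
Counts of the tested proteasome genes against gene span (both axes log scale) in the MT1-MMP RIP library (left) and the IgG RIP library (right). The black line joins the medians of the first 9 of 10 span classes of all tested protein-coding genes. MT1-MMP counts climb with span (rho 0.87), and IgG counts lie mostly above the line (rho 0.23).

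In the core, 11 of 18 tested genes were higher in the IgG library and the other 7 were not called, at a median log2 ratio of -2.41. For this group and those below, the share of tested protein-coding genes called higher in the IgG library was 16.2%. The alpha subunits PSMA1 to PSMA7 form the gated outer rings. PSMA7 had 105 MT1-MMP and 48 IgG counts, the lowest ratio of the alpha genes (-4.40, 95% interval -4.90 to -3.87). PSMA2 had 228 and 34 counts (-2.79, -3.30 to -2.21), and PSMA4 132 and 23 (-3.03, -3.65 to -2.29). All 3 were called higher in the IgG library. PSMA1 (732 and 32 counts), PSMA5 (1297 and 49) and PSMA6 (1251 and 45) had similar IgG counts but many more in the MT1-MMP library, and their ratios, from -1.03 to -0.74, were not called. PSMA3 had 2572 and 28 counts (0.98, 0.47 to 1.59), the highest ratio of the core. Its span overlaps PSMA3-AS1, an antisense RNA row with 3972 and 29 counts, and without stated strand use the reads of such a pair cannot be told apart. PSMA8, a close relative of PSMA7 known from testis, had 132 and 25 counts (-3.14, -3.74 to -2.44). At a span of 59.5 kb its difference from its class median was -3.53, and its 2.22 MT1-MMP counts per kb were the fewest of all tested proteasome genes.

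The beta subunits, which form the inner rings, reached lower. PSMB6 (chromosome 17, 4796164 to 4798495 in RefSeq GRCh38.p14, the build of all positions here), the caspase-like catalytic subunit, had 11 MT1-MMP and 32 IgG counts, and the lowest ratio of all proteasome genes (-7.02, -8.20 to -6.04). PSMB4, a structural subunit in a gene of 2.37 kb, had 68 and 52 counts (-5.14, -5.68 to -4.58). PSMB3, also structural, had 310 and 27 (-2.02, -2.57 to -1.37), and these 3 were called higher in the IgG library. PSMB1 (562 and 19 counts, -0.67, -1.29 to 0.11) and PSMB2 (1301 and 46, -0.71, -1.12 to -0.24), structural as well, were not called. PSMB5, the chymotrypsin-like subunit, had 264 and 22 counts (-1.97, -2.56 to -1.24) and was called higher in the IgG library. PSMB7, the trypsin-like subunit, had 312 and 5 counts (0.31, -0.80 to 2.08), the fewest IgG counts of the tested core genes. The intervals of the 3 catalytic subunits lie apart from each other, in the order PSMB6, PSMB5, PSMB7. This is also the order of their spans, 2.33, 9.37 and 62.0 kb. Against the median of its span class, PSMB6 lay at -4.29, PSMB5 at -0.30 and PSMB7 at -0.08.

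Each catalytic subunit has a replacement in the immunoproteasome, the form that interferon induces for antigen processing. PSMB8, which replaces PSMB5, had 12 counts in each library (-5.52, -6.80 to -4.24) and shares 594 bases with the antisense row PSMB8-AS1. PSMB9, which replaces PSMB6, had 99 and 19 counts (-3.17, -3.86 to -2.35), and PSMB10, which replaces PSMB7, 37 and 7 (-3.20, -4.30 to -1.71). All 3 were called higher in the IgG library, and their genes span 5.66 kb or less. In the pair PSMB6 and PSMB9 the replacement had the higher ratio, and in the other 2 pairs the constitutive subunit had. In all 3 pairs the gene with the higher ratio was the longer one. Spans were 5.66 kb for PSMB9 and 2.33 for PSMB6, 9.37 for PSMB5 and 3.96 for PSMB8, and 62.0 for PSMB7 and 2.345 for PSMB10. Against their class medians the same pairs lay at -0.44 and -4.29, -0.30 and -2.79, and -0.08 and -0.47. Whether span accounts for the order was not tested. The intervals lie apart within all 3 pairs, and those of PSMB7 and PSMB10 rest on 5 and 7 IgG counts. PSMB11, the subunit of the thymus form, was at 0 in both libraries.

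Of the 6 ATPase genes, PSMC1 to PSMC6, whose products form the unfolding ring, 5 were higher in the IgG library, and the median log2 ratio was -2.61. PSMC5 had 44 MT1-MMP and 43 IgG counts (-5.49, -6.13 to -4.85), and PSMC3 had 167 and 61 (-4.08, -4.50 to -3.62). PSMC4 followed with 216 and 34 counts (-2.87, -3.38 to -2.29). PSMC1 (434 and 48, -2.36, -2.78 to -1.88) and PSMC2 (358 and 27, -1.82, -2.36 to -1.17) were called as well. Only PSMC6, with 515 and 20 counts, was not (-0.87, -1.48 to -0.11). Counts of the ATPase genes ran from 20 to 61 in the mock and from 44 to 515 with the MT1-MMP antibody, over spans of 4.59 to 21.9 kb. PSMC1, PSMC2 and PSMC5 overlap NRDE2, SLC26A5 with PMPCB, and FTSJ3. Without such genes 2 of 3 were called.

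The lid and base genes divided into a called and an uncalled set. Of the 13 tested, 6 were higher in the IgG library and 7 were not called (median log2 ratio -0.87). PSMD2 (chromosome 3, 184299241 to 184309050), a large scaffold and ubiquitin receptor of the base, had 176 MT1-MMP and 173 IgG counts (-5.50, -5.81 to -5.18). Its IgG count was the highest of all proteasome genes and above that of 98.3% of tested protein-coding genes. PSMD1, the other large scaffold of the base, had 3372 and 46 counts (0.66, 0.26 to 1.13), and its interval lies apart from that of PSMD2. The span of PSMD1 is 116.0 kb and that of PSMD2 is 9.81 kb.

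Among the ubiquitin-handling lid and base subunits, PSMD4, a ubiquitin receptor, had 366 and 39 counts (-2.31, -2.77 to -1.77). PSMD14, the deubiquitinase of the lid, had 3841 and 45 (0.88, 0.47 to 1.35), while PSMD7, its partner in the lid, had 188 and 28 (-2.80, -3.35 to -2.15). The intervals of these lid partners lie apart, although their IgG counts were within 2-fold of each other. PSMD14 spans 103.3 kb and PSMD7 9.5 kb, and against their class medians they lay at 0.17 and -1.13. Of the structural lid subunits, PSMD8 (69 and 42 counts, -4.81, -5.38 to -4.22) and PSMD3 (278 and 46, -2.94, -3.38 to -2.44) were called higher in the IgG library. PSMD6 (462 and 9), PSMD11 (1617 and 48), PSMD12 (1533 and 48) and PSMD13 (689 and 27) were not, with ratios from -0.87 to 0.08. PSMD6 overlaps the antisense rows PSMD6-AS1 and PSMD6-AS2, the latter with 439 MT1-MMP counts.

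3 genes with PSMD symbols encode chaperones that build the base rather than lasting subunits. PSMD10, also known as gankyrin, had 87 and 13 counts (-2.82, -3.63 to -1.81) and was called higher in the IgG library, a call that is lost if the counts of its pseudogene rows are added to it (-1.36). PSMD9 had 1396 and 20 counts (0.57, -0.03 to 1.32) and was not called. PSMD5 (chromosome 9, 120816053 to 120842922) had 1 MT1-MMP count and none in the mock, so it has no ratio.

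Counts of PSMD5 and its nearest neighbours were low together. The median protein-coding gene of at least the span of PSMD5, 26.9 kb, had 11.2 MT1-MMP counts per kb, and 137 of 9349 such genes had at most 1 count. On either side of PSMD5, B3GALT9 had 7 MT1-MMP counts, PHF19 26 and TRAF1 4, all with 0 IgG counts, whereas FBXW2 had 296 and CDK5RAP2 2612. Chromosome 9 as a whole had a median of 1.84 MT1-MMP counts per kb over its protein-coding genes, against 4.78 to 11.8 on the other autosomes, and 49.7% of its genes had 0 IgG counts, against 20.4% to 41.2%. PSMB7, with 5 IgG counts, lies on the same chromosome. So do 5 of the 45 partner genes listed below, and 3 of those 5 had under 20 counts: VCP with 4 and 0, ZFAND5 with 4 and 0, and UBQLN1 with 0 and 1. None of the 40 partner genes elsewhere had under 20. No cause of the low counts on this chromosome was tested.

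The genes of the caps fell into a called and an uncalled set as well. Of the interferon-induced activator pair, PSME1 had 19 and 29 counts (-6.12, -7.05 to -5.25) and PSME2 had 25 and 18 (-5.06, -5.98 to -4.09). PSME3, the nuclear activator, had 194 and 45 (-3.42, -3.89 to -2.91). All 3 were called higher in the IgG library. PSME4, a single large activator protein, had 3761 and 67 counts (0.28, -0.06 to 0.66), and PSMF1, an inhibitor of the core in the test tube, had 2473 and 45 (0.24, -0.17 to 0.72). Both intervals include 0. The 3 called genes span 2.77 to 10.4 kb, and PSME4 and PSMF1 span 106.9 and 59.0 kb.

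None of the 4 assembly chaperones was called higher in the IgG library, against 16.2% of tested protein-coding genes. At that share, a group of 4 without such a call does not stand apart from other genes. They had the fewest IgG counts of the 5 groups, 4 to 21 each and 36 in all. PSMG4 (chromosome 6, 3254404 to 3268049) had 1405 MT1-MMP and 4 IgG counts (2.77, 1.58 to 4.81), a 6.80-fold higher level in the MT1-MMP library. It was the single proteasome gene called higher there, with 103 MT1-MMP counts per kb, more than 97.5% of tested protein-coding genes. PSMG3, which pairs with PSMG4, had 143 and 4 counts (-0.53, -1.75 to 1.53) in a gene of 2.70 kb and lay 2.20 above its class median. In the other pair, PSMG2 had 1527 and 21 counts (0.63, 0.05 to 1.36). It shares 40822 bases with CEP76 (865 and 11 counts) and 3354 bases with SPIRE1 (9016 and 60). PSMG1 had 73 and 7 (-2.23, -3.25 to -0.77). It was not called on 7 IgG counts, while PSMB3 was called at a higher ratio (-2.02) on 27. The median of the 4 was 0.05, with a sign that turned with 2 counts added in place of 0.5 (-0.20). The call of PSMG4 rests on 4 IgG counts and is lost with a 4-fold threshold.

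By plain CPM the proteasome genes split differently. Then 2 were called higher in the IgG library and 25 with the MT1-MMP antibody, where 0.698% and 86.1% of tested protein-coding genes were. Ratios were below 0 for 9 genes: PSMB6 (-2.78), PSME1 (-1.88), PSMB8 (-1.28), PSMD2 (-1.26), PSMC5 (-1.25), PSMB4 (-0.90), PSME2 (-0.82), PSMD8 (-0.57) and PSMA7 (-0.16). For 5 of the 9 the interval lay wholly below 0. The order of the genes is the same on both scales, which differ by a constant. With totals outside the ribosomal block as the scale, 22 genes were called higher in the IgG library (11.2% of tested protein-coding genes) and 3 with the MT1-MMP antibody (17.8%). Beyond 1.5-fold the calls were 26 and 1 (background 20.1% and 13.7%), and beyond 4-fold 18 and 0 (9.17% and 0.244%).

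The rest of the pathway was taken from lists. Of tested protein-coding genes, 16.2% were called higher in the IgG library and 7.24% with the MT1-MMP antibody. At a share of 7.24%, a short list without such a gene does not stand apart from other genes. Of 11 tested proteasome cofactors without a PSM symbol, 1 was called, the ubiquitin receptor ADRM1, higher in the IgG library with 115 and 60 counts (-4.59, -5.04 to -4.11). The median of this list was 0.30, or -0.05 with ECPAS, at 78 and 0 counts, set to its floor of 3. POMP, which helps to mature the core, had 496 and 21 counts (-0.99, -1.59 to -0.25). Of 8 tested genes listed under the NRF1 axis, 4 were higher in the IgG library and none was higher with the MT1-MMP antibody (median -1.22). NFE2L1 itself had 628 and 79 counts (-2.54, -2.87 to -2.17). The ubiquitin ligase SYVN1 (-3.19), the partner factor MAFG (-2.40) and the ligase adaptor KEAP1 (-2.22) were also called. The other 4, NGLY1 (1.27), NFE2L2 (1.08), DDI2 (0.13) and OGT (-0.22), were not.

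Ubiquitin genes lay lowest among the partners. Of 13 tested ubiquitin genes, E1 enzymes and shuttles, 9 were higher in the IgG library and none was higher with the MT1-MMP antibody (median -2.92). The shares over tested protein-coding genes were 16.2% and 7.24%, so the lack of MT1-MMP calls in a list this short is near the background. The polyubiquitin gene UBB had 79 MT1-MMP and 214 IgG counts (-6.95, -7.35 to -6.58). The ubiquitin fusion gene RPS27A (-4.87) and the shuttle cofactor BAG6 (-4.14) followed. Of 10 antigen processing partners of the immunoproteasome, 5 were higher in the IgG library and none was higher with the MT1-MMP antibody (median -1.31), led by B2M, the light chain of MHC class I (167 and 91 counts, -4.65), and the chaperone CALR (-4.13). TAP1 and PDIA3 were called at -3.30 and -2.45. TAP1, the peptide transporter gene next to PSMB9, had 67 and 14 counts.

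As other multisubunit complexes, the chaperonin CCT and the COP9 signalosome were set beside the proteasome. All 8 CCT genes were higher in the IgG library, between -4.06 for CCT7 and -2.23 for CCT3 (median -3.18), with CCT5 at -3.53, CCT6A at -3.12 and TCP1 at -3.39. Their spans, 11.1 to 29.3 kb, lie inside the range of the proteasome genes. Of the 10 genes of the COP9 signalosome, which resembles the proteasome lid in architecture, 3 were higher in the IgG library (median -1.12): COPS6 (-6.49), GPS1 (-6.18) and COPS7A (-2.81). Called higher in the IgG library were 54.3% of proteasome, 100% of CCT and 30.0% of COP9 genes, against 16.2% of tested protein-coding genes. These shares were not tested against each other. In the IgG library the median CCT gene had 67 counts, the median proteasome gene 30.5 and the median COP9 gene 15.

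**Figure D4:**
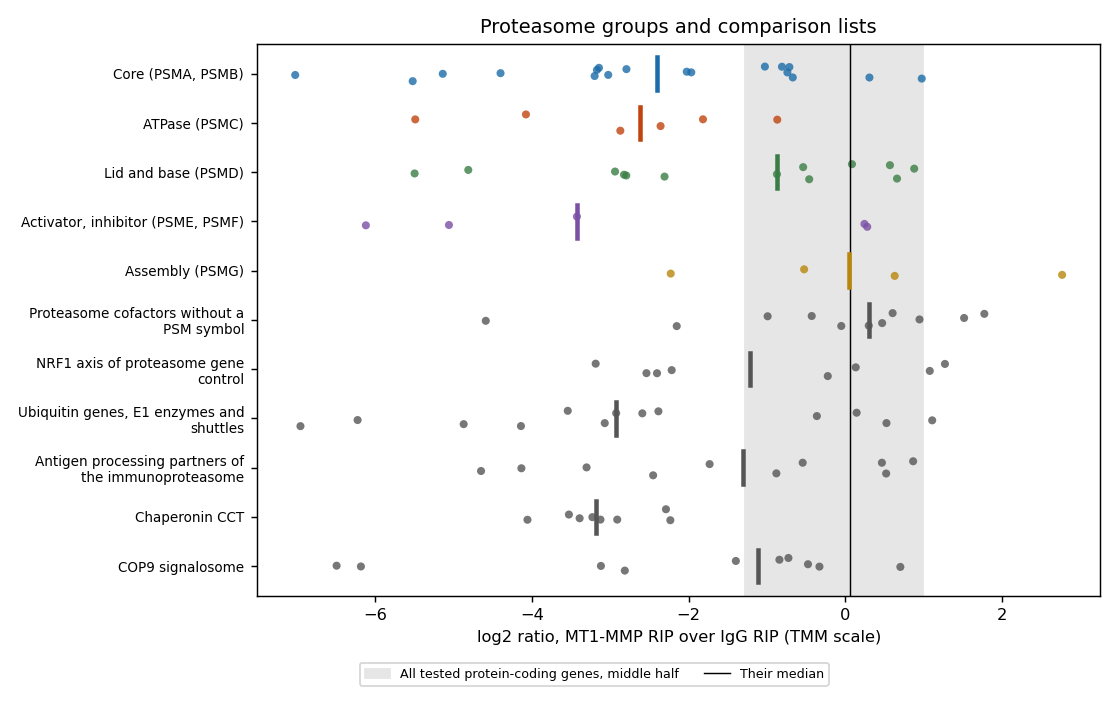
Log2 ratio of MT1-MMP RIP over IgG RIP (TMM scale) for each tested gene of the 5 proteasome groups (coloured) and of 6 comparison lists (grey). Thick bars are medians, and the shaded band spans the quartiles of all tested protein-coding genes, with their median of 0.05 as a line. All 8 CCT points lie left of the band, and the median of the assembly genes is 0.05, which turns to -0.20 with 2 counts added.

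NRF1 is known to bind antioxidant response elements, and promoters were searched for the core of that element, TGACNNNGC, where N is any base, on both strands. Windows of 300 bases (250 before to 50 after each start, RefSeq, GRCh38.p14) were listed for 42 of the 48 proteasome genes, all but PSMA7, PSMB1, PSMB6, PSMB7, PSMD4 and PSMG3. The core was found in 15 of their 51 windows (29.4%) and in 13.3% of the 35116 windows of all genes. It was in 8 of the 22 proteasome genes higher in the IgG library with a window and in 6 of the 17 uncalled ones, besides PSMD5. Shown are 2 promoters of each kind that hold it, with the matches in capitals. PSMD3 (chr17:39980557-39980856, plus strand) and PSME1 (chr14:24135944-24136243, plus strand) were higher in the IgG library. PSMD9 (chr12:121888540-121888839, plus strand) and PSME4 (chr2:53970944-53971243, minus strand) were not called.
PSMD3: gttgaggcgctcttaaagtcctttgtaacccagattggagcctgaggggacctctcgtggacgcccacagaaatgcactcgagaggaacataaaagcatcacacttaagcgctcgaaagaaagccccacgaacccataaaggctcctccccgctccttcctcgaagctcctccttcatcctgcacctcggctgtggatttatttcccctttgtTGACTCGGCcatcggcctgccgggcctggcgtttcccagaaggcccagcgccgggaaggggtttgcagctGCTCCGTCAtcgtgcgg
PSME1: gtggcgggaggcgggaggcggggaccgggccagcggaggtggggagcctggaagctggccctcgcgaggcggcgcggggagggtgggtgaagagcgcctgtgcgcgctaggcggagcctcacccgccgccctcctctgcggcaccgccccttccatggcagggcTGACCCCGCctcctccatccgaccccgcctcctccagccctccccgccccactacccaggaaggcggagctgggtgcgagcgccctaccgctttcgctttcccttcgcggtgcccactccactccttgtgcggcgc
PSMD9: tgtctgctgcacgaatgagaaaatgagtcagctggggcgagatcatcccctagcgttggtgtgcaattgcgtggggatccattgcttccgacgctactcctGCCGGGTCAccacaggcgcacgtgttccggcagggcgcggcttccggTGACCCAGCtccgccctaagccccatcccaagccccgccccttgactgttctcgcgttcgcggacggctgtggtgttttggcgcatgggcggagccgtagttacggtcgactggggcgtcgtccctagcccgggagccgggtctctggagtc
PSME4: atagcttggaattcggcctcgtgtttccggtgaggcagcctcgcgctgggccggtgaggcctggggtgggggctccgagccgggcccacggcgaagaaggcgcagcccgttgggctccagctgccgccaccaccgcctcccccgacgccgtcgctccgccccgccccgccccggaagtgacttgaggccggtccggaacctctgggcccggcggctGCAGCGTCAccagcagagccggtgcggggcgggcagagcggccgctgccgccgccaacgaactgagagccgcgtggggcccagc
PSMD3 and PSMD9 each hold 2 matches, 1 on each strand, and PSME1 and PSME4 hold 1 each. The match of PSME1 begins 86 bases before the start and that of PSME4 34 bases before it. A match is a description of the letters and shows no binding, and these RNA libraries do not measure it.

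Rows outside the symbol pattern can take reads of the same family. The table holds 42 pseudogene rows named for proteasome genes, 13 of them at 0 in both libraries, with 424 MT1-MMP and 55 IgG counts in all. The fullest, PSMD10P1, held 166 and 1, more MT1-MMP counts than PSMD10 itself. With each gene given the counts of the rows named for it, PSMD10 gained 171 and 1 counts and was no longer called (-1.36, -2.09 to -0.43), which left 24 genes higher in the IgG library. PSMC1 moved from -2.36 to -3.08 and PSME2 from -5.06 to -3.66, and both stayed called. Of the 48 proteasome genes, 15 overlap another RefSeq gene with a row in the table. Besides the overlaps given above, PSMD1 shares its span with HTR2B (593 and 0 counts) and PSMD10 with ATG4A (523 and 5), and PSMA8, PSMB3, PSMD9, PSMD14, PSME2 and PSMF1 overlap only pseudogene or miRNA rows of at most 56 counts in a library. Over the 31 tested genes without an overlap, 17 were higher in the IgG library, PSMG4 was again the single gene called the other way, and the median log2 ratio was -2.31.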

How the data were processed

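The authors deposited whole-number read counts per row, 1 column per library, unnormalized. The submitters' processing notes name hg38 and the tools HISAT2, SAMtools and cutadapt. The sources used here give no versions, counting tool, annotation or strand use. Rows repeating both name and counts (959) were left out of ratios. TMM factors came from edgeR 4.0.16 over the 25933 rows with at least 20 summed counts. Ratios used 0.5 counts added per library, and exact (Clopper-Pearson) 95% intervals conditional on the summed count came from SciPy 1.17.1. Spans and names came from RefSeq GRCh38.p14 (all 48 genes matched). Each proteasome gene is accounted for. Of other lists, called genes were named, up to 4 by interval bound, with a few others chosen after their values were seen. Members and lists were chosen with earlier results of these data known. Alternatives covered scaling (total counts, DESeq2 1.42.0 size factors, upper quartile, totals outside the block), count minimum, added counts, overlap and fold. 1 gene of the ubiquitin list is counted in its list but not reported here.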

Additional observations from a re-analysis of the deposited data

How the results depend on the processing

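The scale decides the direction. By plain CPM the median log2 ratio was 2.11 over all proteasome genes, 1.83 for the core, 1.62 for the ATPases, 3.37 for lid and base, 0.81 for activators and inhibitor and 4.29 for assembly. Genes higher in the IgG library then numbered 2 in all, 1 in the core, 0 among the ATPases, 0 in lid and base and 1 among the activators, and 25 higher with the MT1-MMP antibody. Called genes that turned sign were PSMA2 (1.44), PSMA4 (1.21), PSMA8 (1.09), PSMB3 (2.21), PSMB5 (2.27), PSMB9 (1.07), PSMB10 (1.04), PSMC1 (1.88), PSMC2 (2.42), PSMC3 (0.16), PSMC4 (1.37), PSMD3 (1.30), PSMD4 (1.93), PSMD7 (1.44), PSMD10 (1.41) and PSME3 (0.81). List medians were 4.54 for cofactors, 3.02 for the NRF1 axis, 1.31 for ubiquitin genes, 2.93 for antigen processing, 1.06 for CCT and 3.12 for COP9. With totals outside the ribosomal block, 3 genes were called toward MT1-MMP. With at least 100 summed counts, 1 activator gene was higher in the IgG library, since fewer genes were tested. Among genes without an overlapping row, 2 ATPase genes were. Beyond 1.5-fold, 1 assembly gene was higher in the IgG library. Beyond 4-fold, 0 genes were called toward MT1-MMP and 3 ATPase genes toward IgG. DESeq2 size factors, upper quartile scaling, a minimum of 1 count and 2 or 5 added counts kept every count of called genes in the proteasome groups within 1.5 times, as did leaving out chromosome 9 or adding pseudogene rows to their genes (24 higher in the IgG library, without PSMD10), both chosen after seeing the data. Span from listed starts, also chosen then, moved the difference from the class medians from -0.78 to -0.59. Outside plain CPM, medians over all genes, core, ATPases, lid and base, and activators stayed below 0. The activator median was -0.17 with at least 100 counts, and that of lid and base -2.55 without overlapping genes. The assembly median had no stable sign: 0.05 as reported, -0.20 and -0.56 with 2 and 5 counts added and -0.53 without overlapping genes. The cofactor median turned as well, to -0.10 and -0.19 with 2 and 5 counts added, -0.30 with at least 100 counts and -0.99 without overlapping genes. No paired analysis was possible because each group has 1 library. Depth limits calls on the MT1-MMP side: at 0 IgG counts a gene needs 341 MT1-MMP counts to be called.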
